A study of Homo sapiens with 4 samples.

Results

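Cytosolic ribosomal proteins are the protein subunits of the ribosomes that translate nuclear messages, and 77 genes for them were followed here in NB4 cells. They were chosen by symbol alone, as the RPL, RPS, RPLP and RPSA genes without a pseudogene suffix, and make up 77 of the 60662 rows of the deposited gene table. Of these, 31 encode proteins of the small subunit and 46 proteins of the large subunit. NB4 is an established human cell line of acute promyelocytic leukemia that carries the PML-RARα fusion. The cells were transduced with a control lentiviral vector (2 libraries) or with the same vector expressing JMJD3, the histone H3 lysine 27 demethylase encoded by KDM6B (2 libraries), and transduced cells were sorted by their GFP. The question the design puts is what higher JMJD3 does to the transcripts of these leukemic cells. Poly(A) RNA was sequenced, and nothing in the labels says whether replicates are separate cultures, so that p-values measure the spread between these libraries, which may be technical.

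A ribosome holds a single copy of nearly every ribosomal protein, bound to ribosomal RNA, so that cells make the subunits of each particle in matched amounts. Their messages are among the most abundant in growing cells and share a 5′ terminal oligopyrimidine (TOP) sequence, a C followed by a run of C and T at the transcription start, through which mTORC1 and LARP1 control their translation. Because of this layer, the level of a ribosomal protein message and the output of the protein need not move together, and only the messages were measured.

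The libraries held 39078443 and 40768225 estimated counts in vector cells and 35176388 and 34704909 in JMJD3 cells. A count of 0 would allow up to 3 counts, between 0.0786 and 0.0810 CPM (counts scaled to library size), a limit that covers counting error only. No ribosomal protein gene came near it, since each had between 2459 and 152054 counts in every library, and all 77 passed the expression filter that left 15246 genes to test. KDM6B (ENSG00000132510) stood at 15.8 and 13.7 CPM in the vector libraries and at 37.9 and 44.1 CPM in the JMJD3 libraries. Its log2 fold change was 1.48 (edgeR adjusted p = 0.00114, standard error 0.13), in the direction of the labels. Counts per gene do not separate the transgene from the cell's own KDM6B.

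All 7 promyelocytic markers examined were detected, led by MPO, although ELANE stayed under 0.36 CPM, with 1 and 2 counts in the JMJD3 libraries. Their summed level was 16650 and 17460 CPM in vector cells and 10610 and 10560 CPM in JMJD3 cells. The sum is carried by MPO and PRTN3. MPO, PRTN3, AZU1 and CTSG were lower, with log2 fold changes of -0.57, -1.81, -0.56 and -3.91 (edgeR adjusted p = 0.00168, 0.000394, 0.0119 and 9.25e-05). CEBPE and CD33 rose, by log2 fold changes of 0.72 and 0.29 (edgeR adjusted p = 0.00515 and 0.0380). Mitochondrially encoded genes also took a smaller share of all counts with JMJD3, at 5.73% and 5.86% against 7.91% and 7.65% with vector. All 5 erythroid markers were at 0, and the 4 T cell markers together and the 4 stromal markers together stayed under 0.42 CPM in every library. The 3 B cell markers summed to 10.4 and 11.6 CPM with vector and to 17.6 and 15.9 CPM with JMJD3, most of it CD79A, while MS4A1 was at 0. The 4 megakaryocytic markers, led by ITGA2B, summed to 0.621 and 0.707 CPM with vector and to 1.78 and 1.67 CPM with JMJD3, and PF4 and GP9 were at 0. The part of these shifts in the values of the ribosomal protein genes was not tested, and in bulk RNA fewer cells of a type and less RNA per cell cannot be told apart.

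The ribosomal protein genes were highly expressed and spanned a wide range. On the FPKM scale, which divides by transcript length and so allows genes to be compared, their mean level over the 4 libraries had a median of 1808, against 8.59 for all genes tested. Of the 100 genes with the highest FPKM, 41 were ribosomal protein genes, and 68 of the 77 exceeded 1000 FPKM. RPS24, RPS27, RPL13, RPL41 and RPL4 were the most abundant, at 8899, 5731, 5199, 5065 and 4592 FPKM. RPL21, RPL17 and RPL7 were the least abundant, at 394, 417 and 587 FPKM. The highest and lowest thus differed 22.6-fold, although their proteins are used in equal numbers. The median was 1702 FPKM for the small subunit and 1862 FPKM for the large subunit.

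The order of the genes was nearly the same with and without JMJD3. Across the 77 genes, the log2 of the mean FPKM had a Pearson correlation of 0.98 between the groups, a description over genes that share libraries and are not independent. FPKM values of the shortest messages rest on very small effective lengths, 55.6 bases for RPS29, 88.0 for RPS21 and 91.3 for RPS27, and are less certain as levels for that reason.

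**Figure D1:**
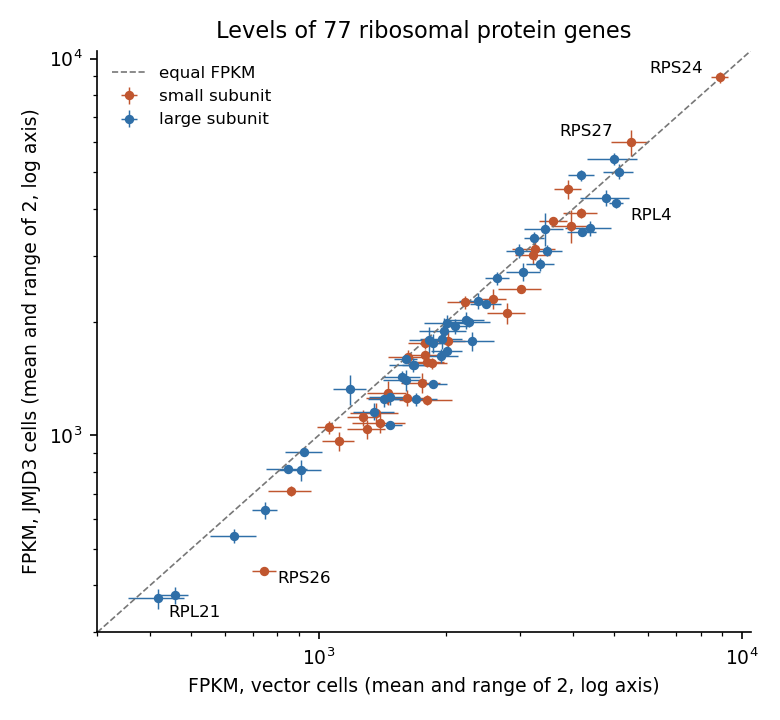
Mean FPKM of each of the 77 ribosomal protein genes in JMJD3 cells against vector cells, with bars for the range of the 2 libraries of a group, on log axes. The points follow the line of equal FPKM from RPL21, the lowest, to RPS24, the highest, and RPS26 lies farthest below it.

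Pseudogenes limit how exactly some of these genes were counted. The table holds 1003 rows for processed copies of 75 of the 77 genes, and estimated counts divide reads among such copies. For RPL7, 74.5% of the counts of the gene and its copies were assigned to copies, mainly RPL7P9, so that its low FPKM is uncertain. The share was 36.7% for RPL9, 34.0% for RPSA, 28.9% for RPL7A, 24.3% for RPL21 and 21.0% for RPL12. It exceeded 10% for 8 genes in all and was under 1% for 65. Adding the copies' counts to their parent genes left the number of genes that changed at 8.

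The TOP sequence is what most of these genes have in common at their starts. RefSeq promoter sequences (GRCh38.p14, from 250 bases before to 50 bases after each annotated start) were matched by symbol for 62 of the 77 genes, with 77 starts in all. A C followed by at least 4 pyrimidines (C or T) began exactly at the annotated start in 46 of these 77 starts (59.7%), against 4.07% of all 35116 promoters in the table. Within 5 bases of the start it was found in 74% and 21.1%. On the opposite strand the same motif began at the start in 0% and 2.07%, and within 5 bases of it in 11.7% and 18.6%. At the exact start it was found in 26.7% of 15 promoters of elongation factors, 19.4% of 36 promoters of initiation factors and 7.14% of 84 promoters of mitochondrial ribosomal proteins, whose ribosome is a separate machine.

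The following 30-base stretches, 10 bases before the start and 20 from it, belong to the 5 genes with the lowest log2 fold changes among those that passed the test, of the only 2 genes higher in both JMJD3 libraries than in both vector libraries, of the most abundant gene and of RPS6, the substrate of the S6 kinases. Capitals mark the C and the pyrimidines that follow it without a break.
RPS26, chr12:56041908-56041937, plus strand: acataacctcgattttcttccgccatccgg
RPS9, chr19:54200848-54200877, plus strand: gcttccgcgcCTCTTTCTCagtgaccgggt
RPL3, chr22:39319604-39319633, minus strand: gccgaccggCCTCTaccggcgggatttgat
RPL14, chr3:40457329-40457358, plus strand: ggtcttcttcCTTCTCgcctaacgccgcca
RPLP1, chr15:69452808-69452837, plus strand: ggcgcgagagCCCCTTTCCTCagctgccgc
RPL36A, chrX:101391001-101391030, plus strand: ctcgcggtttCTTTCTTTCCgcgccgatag
RPS18, chr6:33272065-33272094, plus strand: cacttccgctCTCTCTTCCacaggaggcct
RPS24, chr10:78033853-78033882, plus strand: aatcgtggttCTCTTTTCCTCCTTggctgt
RPS6, chr9:19380217-19380246, minus strand: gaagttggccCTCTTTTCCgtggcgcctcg
The run was longest in RPS24 (14 bases) and RPLP1 (11 bases) among those shown, began 1 base upstream of the annotated start in RPL3, and was not found by this rule within 5 bases of the start of RPS26. Members with and without the run both had medians below 0. The median log2 fold change was -0.14 over the 53 genes with a run within 5 bases, of which 6 fell, and -0.03 over the 9 without one, of which 1 fell. With the run exactly at the start it was -0.13 over 46 genes, of which 4 fell, and without it -0.22 over 16 genes, of which 3 fell. Of all genes tested 19.1% fell, and no difference between these groups was tested. A match is a description of these letters only, and annotated starts need not be those used in NB4 cells.

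Few ribosomal protein genes changed with JMJD3 in the main fit, and those that did were lower by less than 2-fold. With edgeR, 8 of the 77 genes fell at an adjusted p under 0.05 (10.4%) and 0 rose, while 19.1% of all genes tested fell and 21.6% rose. Either way, 10.4% of the ribosomal protein genes were called against 40.7% of all genes tested. With a limit of 2-fold, 0 were called against 10.4% of all genes tested. At an unadjusted p under 0.05 edgeR gave 2 higher and 14 lower, where 26.9% of all genes tested were higher and 24.2% lower. The DESeq2 Wald test called 0 higher and 13 lower, and limma on log2(FPKM + 1) or log2(FPKM + 0.1) called 0 higher and 1 lower. Of all genes the Wald test called 35.2% (18.8% lower), and limma 9.27% and 10.5% on these scales. Scaling to total counts only gave 7 higher and 1 lower, where 31.2% of all genes were higher and 10.5% lower. The higher ones were RPL26, RPL31, RPL36A, RPL39, RPS6, RPS18 and RPS27, and the lower one was RPS26. The 2 JMJD3 libraries lay wholly below the 2 vector libraries for 24 genes and wholly above for 2, together 33.8% of the members, whereas the groups did not overlap for 74.4% of all genes tested.

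The median log2 fold change was -0.13 (quartiles -0.22 and -0.02), against 0.04 for all genes tested, and it was 0.04 with scaling to total counts only, under which the median of all genes moved by 0.17. The values ran from -0.73 to 0.26, with 60 below 0 and 17 above. It was -0.13 for the small subunit, with 3 of 31 genes called lower, and -0.13 for the large subunit, with 5 of 46. Other genes above the level of the lowest member lay mostly in the same direction. Among 2926 other genes at or above the lowest member's mean level, a set defined after the values were seen, the median was -0.21, and 42.2% fell and 9.43% rose. That member, RPS29, had a mean of 73.1 CPM with vector, well below most members, so the set is not matched to them in level.

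**Figure D2:**
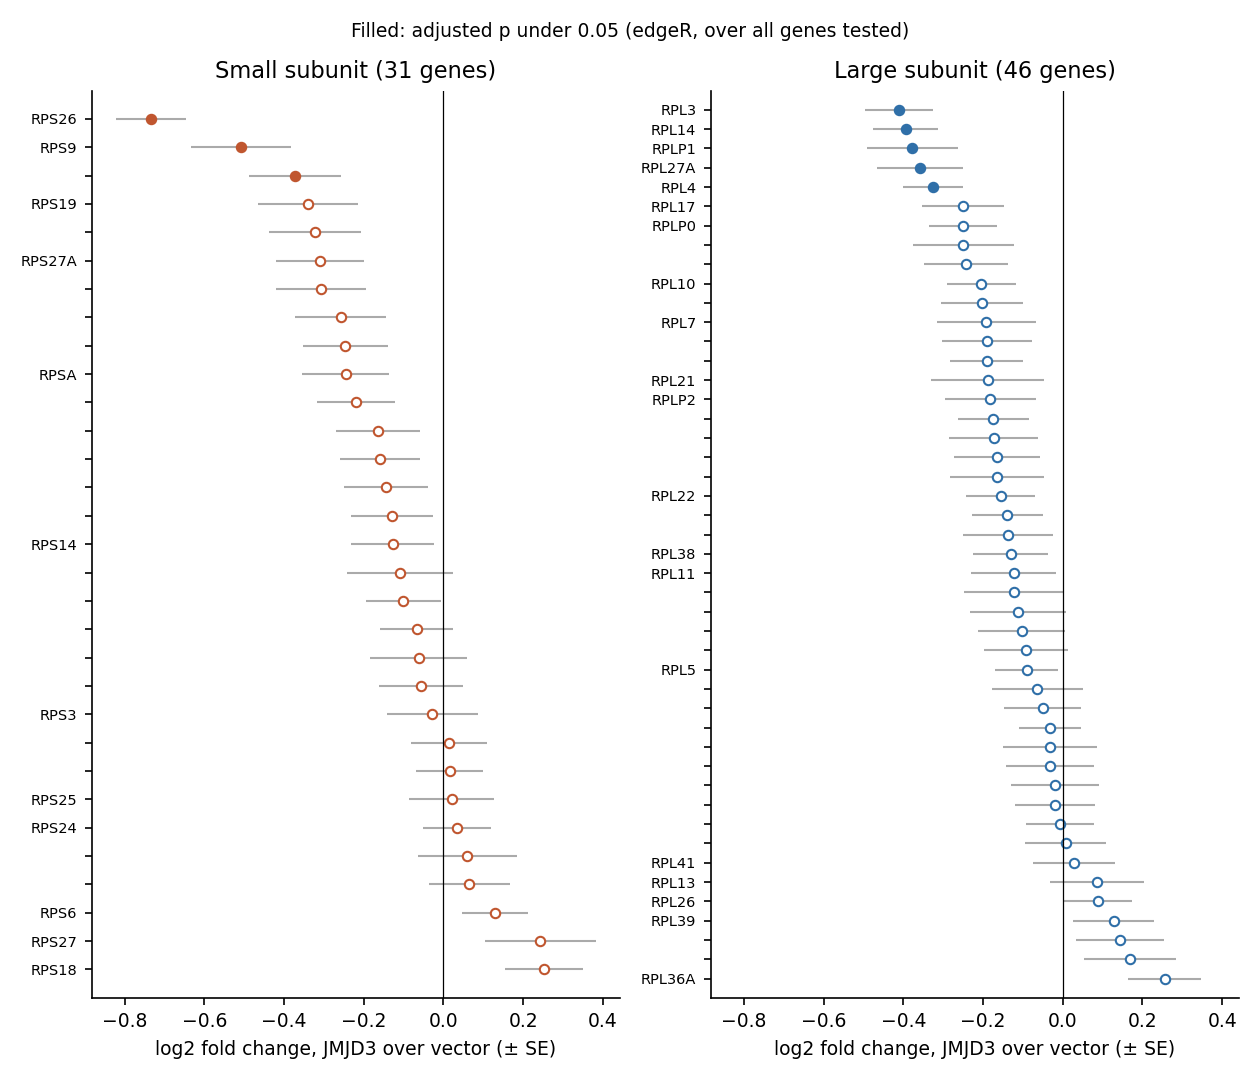
Log2 fold change (JMJD3 over vector) of every ribosomal protein gene with its standard error, labelled for the genes whose fold changes are given and sorted within the small and the large subunit, filled where the adjusted p from edgeR was under 0.05. The 8 filled points all lie below 0, led by RPS26 at -0.73, and no gene exceeds 0.26.

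RPS26 stood apart from the other members. This protein lines the channel through which the messenger RNA leaves the small subunit, and its loss of function is a cause of Diamond-Blackfan anemia. RPS26 (ENSG00000197728) was at 263 and 293 CPM in vector cells and at 173 and 161 CPM in JMJD3 cells. Both JMJD3 libraries were below both vector libraries by more than either pair of replicates differed. The log2 fold change was -0.73 (edgeR adjusted p = 0.00236, standard error 0.09), a level 39.9% lower. It passed the threshold in each of the 15 alternatives that gave a test, with adjusted p values from edgeR, DESeq2 or limma of up to 0.0391 and log2 fold changes between -0.85 and -0.56. It was the only member that changed by at least 1.5-fold.

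RPS9 also fell in the small subunit. RPS9 (ENSG00000170889), which sits where the message enters the small subunit, was at 563 and 727 CPM with vector and at 473 and 434 CPM with JMJD3. The gap between the groups was smaller than the distance between the vector libraries, and the log2 fold change was -0.51 (edgeR adjusted p = 0.0199, standard error 0.13).

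In the large subunit 5 genes fell. RPL3 (ENSG00000100316), whose protein reaches close to the peptidyl transferase center, was at 1981 and 2265 CPM with vector and at 1639 and 1556 CPM with JMJD3. Its log2 fold change was -0.41 (edgeR adjusted p = 0.0112, standard error 0.09). RPL14 (ENSG00000188846) was at 1025 and 1139 CPM with vector and at 849 and 798 CPM with JMJD3. For RPL3 and RPL14 alike, the gap between the groups was wider than the distance between the replicates of either group. RPL14 had a log2 fold change of -0.39 (edgeR adjusted p = 0.0110, standard error 0.08).

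RPL4, which extends a loop into the tunnel through which the new peptide leaves, was at 3326 and 3627 CPM with vector and at 2854 and 2696 CPM with JMJD3. Its log2 fold change of -0.33 (edgeR adjusted p = 0.0153, standard error 0.07) was the smallest among the 8. RPLP1, an acidic protein of the stalk that recruits elongation factors, was at 1117 and 1378 CPM with vector and at 1016 and 906 CPM with JMJD3. For RPLP1 both JMJD3 libraries were below both vector libraries, with a gap between the groups smaller than the distance between the vector libraries. Its log2 fold change was -0.38 (edgeR adjusted p = 0.0382, standard error 0.11), and RPL27A was alike with -0.36 (standard error 0.11, adjusted p = 0.0371). RPL27A and RPL4 were named after their values were seen. Of the genes named here as lower, only RPS26 was also called by limma or with scaling to total counts only. A trend on length and level over all genes was also taken out, which gave no test. RPL3, RPL14, RPL4, RPLP1 and RPL27A were then at -0.066, -0.030, -0.0029, -0.017 and -0.014. RPS9 was then at -0.27 and RPS26 at -0.51. Without JMJD3 library 2, RPL3, RPL14, RPL4, RPLP1 and RPL27A missed the threshold, at log2 fold changes of -0.37, -0.35, -0.28, -0.29 and -0.29. Without vector library 2, RPLP1 and RPL27A missed it, at -0.22 and -0.22, and both of them and RPS9 also missed it with no filter on low counts.

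The remaining stalk proteins did not pass the main test, although RPLP0 was called lower with DESeq2 size factors and with the DESeq2 Wald test. RPLP0, the scaffold to which the acidic pair binds, was at 3465 and 3984 CPM with vector and 3225 and 3040 CPM with JMJD3 (edgeR adjusted p = 0.0563, log2 fold change -0.25). RPLP2 was at 611 and 747 CPM with vector and 634 and 563 CPM with JMJD3 (edgeR adjusted p = 0.237, log2 fold change -0.18). The groups were separate for RPLP0 and overlapped for RPLP2.

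Members known from inherited or acquired blood disease differed in whether their libraries overlapped. RPS19, the gene most often affected in Diamond-Blackfan anemia, was at 404 and 512 CPM with vector and 384 and 340.0 CPM with JMJD3. Its log2 fold change was -0.34 (edgeR adjusted p = 0.0702), and it was called lower with a replicate block and with the DESeq2 Wald test. RPS14, whose loss accounts for the anemia of the 5q- syndrome, was at 791 and 912 CPM with vector and 838 and 722 CPM with JMJD3 (log2 fold change -0.13). RPS24 was at 1901 and 2080.0 CPM with vector and 2153 and 1925 CPM with JMJD3, a log2 fold change of 0.03. The libraries did not overlap for RPS19, with JMJD3 lower, and overlapped for RPS14 and RPS24. RPL5 and RPL11, which carry the 5S ribosomal RNA and hold back MDM2 when ribosome assembly fails, had log2 fold changes of -0.09 and -0.12 with overlapping libraries. For RPL10 and RPL22, both mutated or deleted in T cell leukemia, they were -0.20 and -0.16, with adjusted p of 0.0995 and 0.190 from edgeR. The JMJD3 libraries of both genes lay below both vector libraries, for RPL22 narrowly. Of all genes tested, 74.4% had groups that did not overlap.

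Among the other proteins with known roles, RPS6 was at 2976 and 3294 CPM with vector and 3593 and 3271 CPM with JMJD3, a log2 fold change of 0.13 with overlapping libraries. RPS3, at the entry of the message channel, and RPS25, needed for initiation at some viral internal entry sites, had log2 fold changes of -0.03 and 0.02. RPSA and RPS27A, the latter made as a fusion with ubiquitin, had -0.25 and -0.31, and neither passed the test (edgeR adjusted p = 0.116 and 0.0609). RPL38, known from the patterning of the mouse axial skeleton, had -0.13, and the very small basic proteins RPL39 and RPL41 had 0.13 and 0.03. Of the most and least abundant genes not yet given, RPL13 had 0.09, RPL21 -0.19, RPL17 -0.25 and RPL7 -0.19, none past the threshold. The signs of the values nearest 0 turned with the scaling or with the library left out, RPS3, RPS25 and RPL41 among them.

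Only 2 members, RPL36A and RPS18, were above both vector libraries in both JMJD3 libraries, and they are named for that reason after their values were seen. RPL36A, a protein of the large subunit near the exit site for transfer RNA, was at 667 and 751 CPM with vector and at 892 and 803 CPM with JMJD3. RPS18, in the head of the small subunit and often taken as a reference gene, was at 1254 and 1432 CPM with vector and at 1705 and 1494 CPM with JMJD3. Their log2 fold changes of 0.26 and 0.25 did not pass the test (edgeR adjusted p = 0.0620 and 0.0800). RPS27, the next highest, was at 430 and 532 CPM with vector and 633 and 506 CPM with JMJD3. Its log2 fold change was 0.24 with overlapping libraries (edgeR adjusted p = 0.198). RPL36A, RPS18 and RPS27 were called higher with scaling to total counts only. A crossed replicate block, added after the values were seen, also called them higher. It pairs vector library 2 with JMJD3 library 1, and vector library 1 with JMJD3 library 2. This pairing follows the level of the members in these libraries, so its calls are no separate support.

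A shift that all members shared separated the libraries within each group. Relative to each gene's mean over the 4 libraries, the median member was at -0.06 in vector library 1, 0.18 in vector library 2, 0.01 in JMJD3 library 1 and -0.14 in JMJD3 library 2, on the log2 scale. Vector library 2 was above vector library 1 for 77 of 77 members, by a median of 0.25 (from 0.12 to 0.41). JMJD3 library 1 was above JMJD3 library 2 for 77 of 77, by a median of 0.15 (from 0.04 to 0.32). The shift between the vector libraries was therefore larger than the median difference between the groups.

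**Figure D3:**
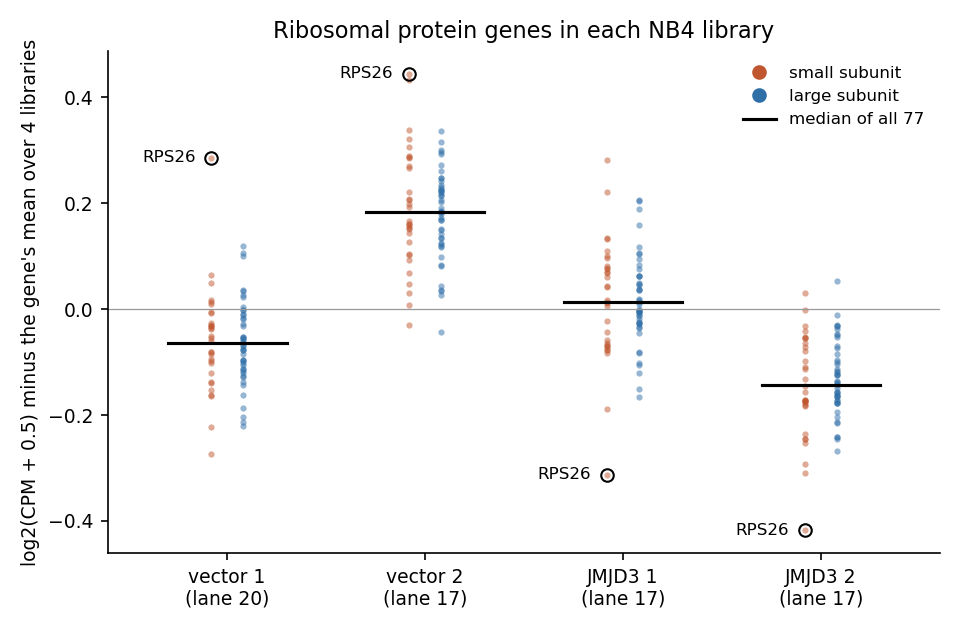
Log2(CPM + 0.5) of each ribosomal protein gene in each library, relative to that gene's mean over the 4 libraries, with black bars for the median of the 77 genes and rings for RPS26. The genes move as a block between the libraries of a group, with medians of -0.06 and 0.18 in vector cells and 0.01 and -0.14 in JMJD3 cells, while RPS26 follows the groups.

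The number of calls rested on which libraries were compared. By its label vector library 1 ran on lane 20, whereas lane 17 held the remaining 3. With lane 17 alone, that is without vector library 1, 43 members were lower and 0 higher, with a median log2 fold change of -0.28, where the spread of the only vector library is assumed to be that of the JMJD3 libraries. Without vector library 2 there were 5 lower and 3 higher and the median was -0.01. Without JMJD3 library 2 there were 2 lower and 0 higher (median -0.05), and without JMJD3 library 1 there were 8 lower and 0 higher (median -0.22). The calls over all genes tested moved as well, to 53.4% without vector library 1 (26.6% lower), 43.2% without vector library 2, 21.4% without JMJD3 library 1 and 19% without JMJD3 library 2, against 40.7% with all 4. Lane and replicate cannot be told apart for vector cells, which had 1 library on each lane.

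The shared shift between replicates went along with transcript length in other genes. Other genes with effective lengths under 500 bases had a median of 0.14 for vector library 2 over vector library 1 and 0.08 for JMJD3 library 1 over JMJD3 library 2. In the longest class, 1922 genes with a median effective length of 5180 bases, the medians were -0.27 and -0.09. The members, with a median effective length of 413 bases, lay beyond the shortest class in both contrasts. The difference between the groups also followed length, with medians of -0.09 under 500 bases and 0.19 in the longest class. After a trend on length and level fitted over all genes was taken out, the median of the members turned to 0.13. The part of length in the members' values was not tested further.

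**Figure D4:**
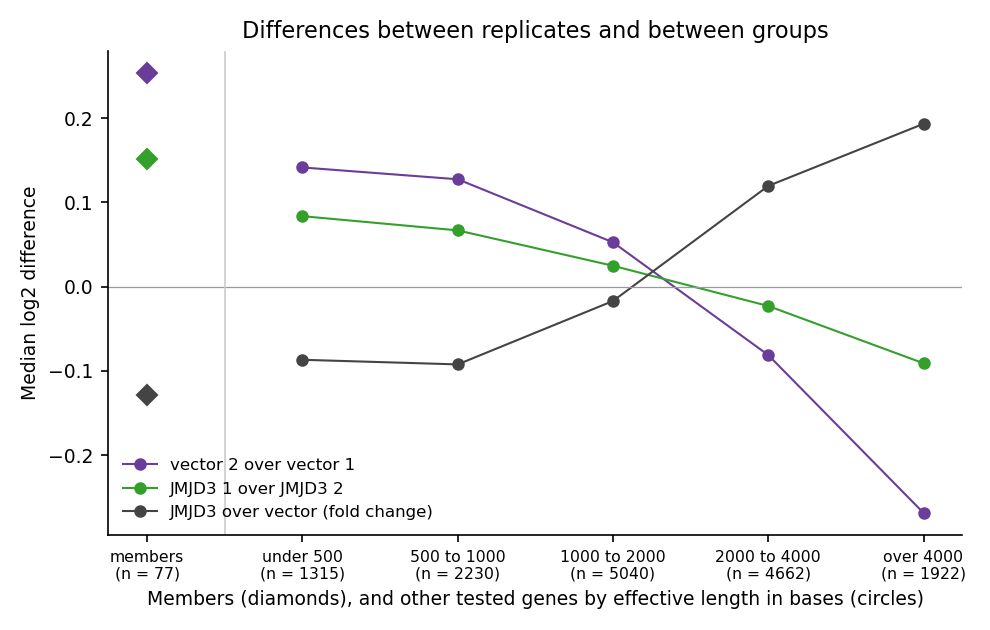
Median log2 difference between the replicates of each group and between the groups, for the 77 members (diamonds) and for other tested genes in 5 classes of effective length (circles). Both replicate contrasts fall from the shortest to the longest class, to -0.27 and -0.09, while the fold change rises to 0.19, and the members sit at 0.25, 0.15 and -0.13.

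Among the members themselves the fold change fell weakly with length, against the direction in other genes. The 16 genes under 300 bases of effective length had a median log2 fold change of -0.04, with 7 above 0 and 0 called. The 35 genes from 300 to 500 bases had -0.14, with 5 above 0 and 3 called lower, and the 26 genes over 500 bases had -0.16, with 5 above 0 and 5 called lower, where 19.1% of all genes tested were called lower. Across the 77 genes the log2 of the effective length and the log2 fold change had a Pearson correlation of -0.297 (Spearman -0.256), a description over genes measured in the same libraries.

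Together the members took 6.74% of all counts in vector library 1 (95% exact binomial interval 6.73 to 6.75), 7.81% in vector library 2 (7.80 to 7.82), 7.90% in JMJD3 library 1 (7.89 to 7.91) and 7.25% in JMJD3 library 2 (7.25 to 7.26). These intervals cover counting error only, and the replicates of a group lay far outside them. The mean was 7.28% ± 0.757 (SD, n = 2) with vector and 7.58% ± 0.456 (SD, n = 2) with JMJD3. The difference of 0.301 percentage points was within the spread of the replicates (exact permutation p = 0.667, two-sided). The smallest p that 2 against 2 libraries allow is 0.333. Without vector library 1 the difference was -0.23 and without JMJD3 library 1 -0.02, so that its sign depended on these libraries. Without mitochondrial genes the difference was 0.154 points (exact permutation p = 1). The raw share was higher while the median fold change was below 0, and TMM, edgeR's scaling between libraries, gave factors of 0.949 and 0.937 to the vector libraries and 1.05 and 1.07 to the JMJD3 libraries. As a share of summed FPKM the members took 12.2% and 13.7% with vector and 17.4% and 15.7% with JMJD3. The summed FPKM of all genes was 1344850 and 1445370 with vector and 1004720 and 1018090 with JMJD3, and that of the members overlapped, at 164021 and 197564 with vector and 174979 and 159453 with JMJD3.

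On summed counts, the ratio between the subunits separated the groups and the total did not. The median log2 fold change was alike, at -0.127 for the small and -0.134 for the large subunit. A sum weighs abundant genes most, and the part of single abundant genes in the ratio was not tested. The counts of small subunit genes were 0.628 and 0.628 of those of large subunit genes with vector, and 0.668 and 0.659 with JMJD3. The vector libraries were nearly identical on this measure in spite of their different totals, and both JMJD3 libraries were above them. This ratio was chosen after the values were seen and is given with no test. Without RPS26 and the 3 members with the highest fold changes it was 0.593 and 0.593 against 0.625 and 0.618. From summed FPKM, in which short genes weigh more, it was 0.711 and 0.709 against 0.720 and 0.712, a difference of 0.00631 in place of 0.0351. On FPKM, JMJD3 library 2 was close to the vector libraries in the ratio.

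Scaling the libraries to the members themselves, an alternative added after the values were seen, takes out the shift they share. RPS26 was then lower by a log2 fold change of -0.61 (edgeR adjusted p = 0.0223), the only member called lower. RPS18 and RPL36A were higher, by 0.38 and 0.38 (edgeR adjusted p = 0.0335 and 0.0423). In this fit 16.4% of all genes tested were called, and the median of all genes was 0.16. RPS9 and RPL3, the next lowest, had -0.37 and -0.28 and did not pass. RPS27 had 0.37, nearly the value of RPS18 and RPL36A, and did not pass (edgeR adjusted p = 0.0640). With this scaling the groups did not overlap for 57 of the 77 members (74%) and for 64.6% of all genes tested, a difference that was not tested.

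Several ribosomal proteins have paralogs, which can take their place in the particle in some cells. Of 8 paralogs examined 7 were tested, 4 fell and 0 rose, where 19.1% of all genes tested fell and 40.7% were called either way, and RPL10L had 0 counts. RPL36AL was at 193 and 229 CPM with vector and at 142 and 120 CPM with JMJD3, a log2 fold change of -0.69 (edgeR adjusted p = 0.00645, standard error 0.12). RPL22L1 was at 16.8 and 22.5 CPM with vector and at 12.6 and 10.8 CPM with JMJD3, a log2 fold change of -0.75 (edgeR adjusted p = 0.0134, standard error 0.17). RPL26L1 was at 29.8 and 33.7 CPM with vector and at 18.6 and 20.1 CPM with JMJD3, a log2 fold change of -0.71 (edgeR adjusted p = 0.00470, standard error 0.11). The JMJD3 libraries were below both vector libraries for each of these paralogs. RPL36AL and RPL22L1 were not called by limma on either FPKM scale, nor RPL22L1 with no filter.

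RPS27L, also known as a target of p53, had a log2 fold change of -0.40 (edgeR adjusted p = 0.0267, standard error 0.11), a call that was lost with limma, with no filter, with the replicate block, with scaling to total counts and without either JMJD3 library (log2 fold changes of -0.40 and -0.40). RPL7L1 and RPL39L had -0.12 and 0.15 and did not pass. RPL3L, a gene of muscle, had between 3 and 14 counts, at the limit of detection in vector library 1, and no fold change is given.

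Set beside their parent genes, 4 of 6 paralogs made up a smaller part of the pair in both JMJD3 libraries. Among all single genes tested, the groups did not overlap for 74.4%. The pair of RPL7L1 and RPL7 was not formed, and these genes had log2 fold changes of -0.12 and -0.19. On FPKM, RPL36AL was 9.36% and 9.81% of the sum of RPL36AL and RPL36A with vector, and 5.38% and 4.94% with JMJD3. RPL22L1 was 6.03% and 7.23% of its pair with vector and 4.73% and 4.58% with JMJD3. RPL26L1 was 2.14% and 2.27% with vector and 1.15% and 1.37% with JMJD3, and RPS27L was 0.844% and 0.779% with vector and 0.494% and 0.588% with JMJD3. RPL39L overlapped between the groups, at 0.906% and 0.872% with vector and 0.944% and 0.895% with JMJD3. RPL3L was higher in both JMJD3 libraries, at 0.00279% and 0.00942% with vector and 0.0118% and 0.0130% with JMJD3, on the few counts given above. The parents RPL36A, RPL22, RPL26 and RPS27 themselves passed no test, at log2 fold changes of 0.26, -0.16, 0.09 and 0.24. Paralogs and parents are similar in sequence, and how the estimated counts divided reads between them was not tested.

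FAU encodes the ribosomal protein eS30 as a fusion with a ubiquitin-like protein and carries no RPL or RPS symbol. It was at 433 and 507 CPM with vector and at 423 and 389 CPM with JMJD3. The JMJD3 libraries were below both vector libraries, the higher of them narrowly, and the test was not passed (edgeR adjusted p = 0.128, log2 fold change -0.21).

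Genes that work with the ribosome are given by list, beside the 40.7% of all genes tested that were called, and no difference between lists was tested. Called either way were 62.2% of the initiation, 50% of the elongation, 54.2% of the assembly and export, 58.3% of the small nucleolar RNA host, 50% of the ribosome-associated and 33.3% of the polymerase genes. Of 37 initiation factors, 20 fell and 3 rose, with a median log2 fold change of -0.29, and EIF1, which monitors the start codon, and EIF3B, a subunit of the scaffold eIF3, fell by 0.88 and 0.88 on the log2 scale and EIF1B by 0.78. Of 10 elongation factors and related genes tested, 3 fell and 2 rose (median -0.10), with EIF5A, EEF1D and EEF1E1 lower by -0.71, -0.54 and -0.50. Of 24 genes for ribosomal protein chaperones, assembly and export, 12 fell and 1 rose (median -0.29), with GRWD1 at -0.90, LTV1 at -0.68 and MDN1 at -0.53. EIF1, EIF3B, EIF1B, EIF5A, GRWD1 and LTV1 passed the threshold in every alternative that gave a test. EEF1D was lost with limma, EEF1E1 without JMJD3 library 2 (-0.40), and MDN1 with total counts, with no filter and without JMJD3 library 1 (-0.44).

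Of 12 host genes of small nucleolar RNAs, many of which also carry TOP sequences, 6 fell and 1 rose, with EPB41L4A-AS1 at -0.94, SNHG5 at -0.72 and SNHG12 at -0.51. Of 8 genes whose messages or proteins associate with the ribosome, 2 fell and 2 rose, with NPM1 at -0.40, HNRNPA1 at 0.27 and NAP1L1 at 0.24. Of 21 genes for RNA polymerases I and III and their factors, 5 fell and 2 rose, with TAF1A at 0.75 and POLR3D at 0.60. The median log2 fold changes of these lists were -0.31, -0.09 and -0.06. NAP1L1 passed in only 6 and HNRNPA1 in only 9 of 15 alternatives with a test, and both were lost with the DESeq2 Wald test, limma, the replicate block and without either JMJD3 library (0.23 and 0.24 for NAP1L1, 0.24 and 0.30 for HNRNPA1). NAP1L1 was also lost without vector library 2 (0.17), with DESeq2 size factors and with no filter. NPM1, SNHG5, SNHG12 and TAF1A were lost with limma on both FPKM scales and EPB41L4A-AS1 on log2(FPKM + 1). Without JMJD3 library 2 the calls of SNHG12 (-0.48), TAF1A (0.63) and POLR3D (0.57) were lost, and without JMJD3 library 1 that of SNHG12 (-0.54).

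The list of mTORC1 and TOP message regulators moved in both directions. Of its 28 genes 10 fell and 4 rose, together 50%, with a median log2 fold change of -0.08. CASTOR1, an arginine sensor that restrains mTORC1 (listed as GATSL3), was at 0.809 and 0.812 CPM with vector and at 2.84 and 2.65 CPM with JMJD3, a log2 fold change of 1.75 (edgeR adjusted p = 0.00207). SESN3, a sestrin that restrains mTORC1, was at 21.9 and 16.1 CPM with vector and at 8.91 and 9.48 CPM with JMJD3, a log2 fold change of -1.05 (edgeR adjusted p = 0.00468). With limma, on both FPKM scales, CASTOR1 and SESN3 missed the threshold. AKT1S1, a further inhibitor bound to the complex, was at 54.3 and 66.1 CPM with vector and at 31.6 and 31.4 CPM with JMJD3, a log2 fold change of -0.93 (edgeR adjusted p = 0.00267). Genes described as inhibitors were thus found on both sides, and no activity of the pathway was measured.

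The mitochondrial ribosomal proteins serve the messages of the mitochondrial genome. Of 77 genes tested 52 fell (67.5%) and 0 rose, where 19.1% of all genes tested fell and 21.6% rose. In the cytosolic set 8 of 77 fell. The median log2 fold change was -0.49, against -0.13 for the cytosolic set. The sets also differed in median effective length, 882 against 413 bases. MRPL46, MRPL27 and MRPL14 were lowest, by -1.18, -0.97 and -0.92. The difference between the sets was not tested.

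**Figure D5:**
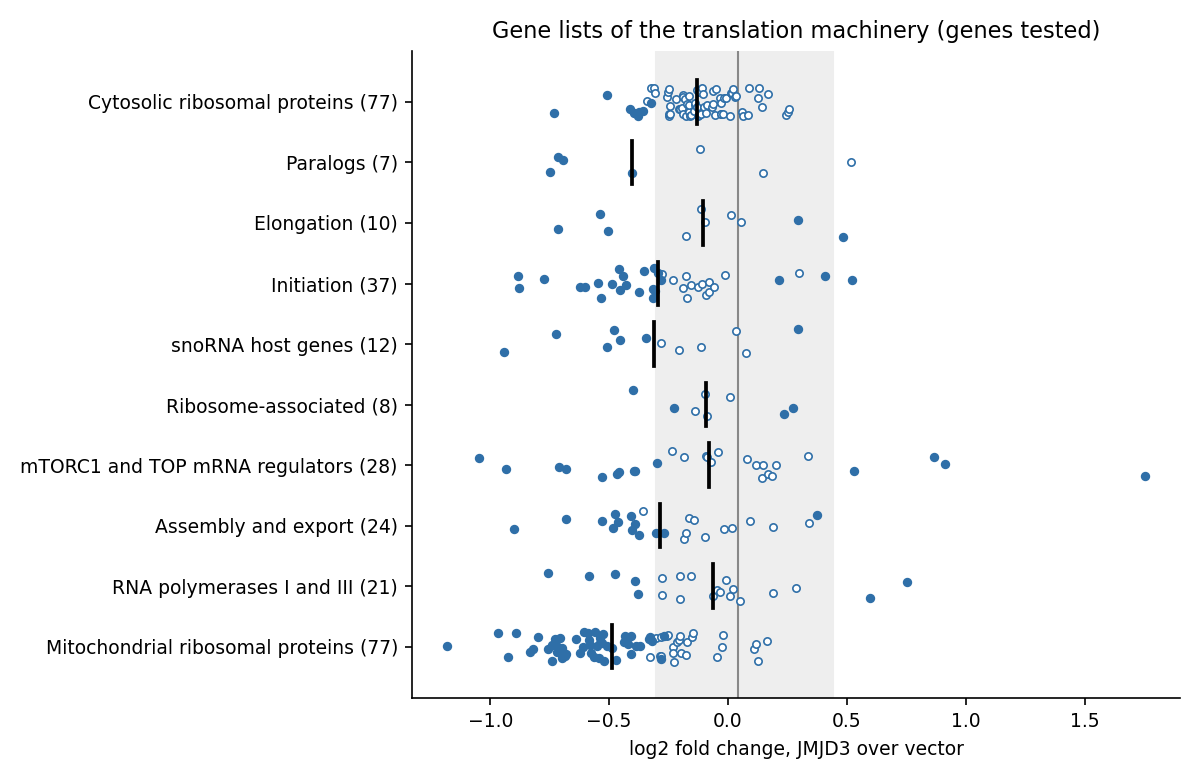
Log2 fold change (JMJD3 over vector) of each tested gene in 10 lists of the translation machinery, filled where the adjusted p from edgeR was under 0.05, with black bars for list medians, a grey line for the median of all genes tested (0.04) and a grey band for their quartiles (-0.30 and 0.44). The cytosolic ribosomal proteins form the narrowest of the larger lists, while 52 of 77 mitochondrial ribosomal proteins are filled on the lower side.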

How the data were processed

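For NB4 cells the authors deposited a table that gives each gene's estimated count and FPKM by library. The authors' comparison columns in it, computed by them before deposit, hold a log2 fold change, a p-value and an FDR, none of them used. Sources disagree on how it was made. The submitters' processing notes name CASAVA 1.8, TopHat2 2.0.4, RSEM, edgeR and GRCh38, the methods STAR on hg19, HTSeq-count and DESeq2, and the series design other tools. Counts above 0 differed from a whole number by more than 0.001 in 97.9% of cases, as estimated counts do. The labels give DMEM and Trizol, the methods RPMI-1640 and a column kit.

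Here, counts were rounded, filtered with filterByExpr, scaled with TMM and tested over all genes with edgeR 4.0.16 (R 4.3.3, quasi-likelihood, 4 libraries, no covariate, Benjamini-Hochberg). The call was an adjusted p under 0.05. The standard error is the log2 fold change divided by the square root of F. Effective lengths were derived from counts, FPKM and scaled library sizes. Tests were checked on simulated counts. DESeq2 1.42.0 and limma 3.58.1 (mean FPKM of at least 0.1) served as alternatives, with other scalings, filters, thresholds, a replicate block and each library left out.

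Named genes were KDM6B, the 5 highest and 5 lowest called members, the 5 most and 3 least abundant, members with known roles, paralogs, FAU, and up to 3 called genes per list. Some genes that this rule covers are not reported here. All 151 list symbols were found. Members and lists were chosen with earlier results of these data known.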

Additional observations from a re-analysis of the deposited data

How the results depend on the processing

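The number of members lower in JMJD3 cells (8) was 5 with upper quartile scaling, 1 with total counts only, 13 with the DESeq2 Wald test, 1 with limma on either FPKM scale and 4 with no filter. These called 39.8%, 41.7%, 35.2%, 9.27% and 10.5%, and 13.5% of all genes, against 40.7%. It was 1 at an adjusted p under 0.01, 0 at 2-fold and 1 at 1.5-fold. The number higher (0) was 7 with total counts only, where all genes split into 4764 higher and 1598 lower, against 3292 and 2906. With each library left out it was 0 to 3 higher and 2 to 43 lower, and the lone library of a group was assumed to vary like the other group. With the members' median ratio as scale, chosen after seeing the data, it was 2 higher and 1 lower. The causes were not tested. DESeq2 size factors, TMM without the members, at least 10 counts in every library and added pseudogene counts gave between 8 and 10 lower and 0 higher. The median log2 fold change turned to 0.0413 with total counts only and 0.133 with the length and level trend removed. It was 0.0425 and 0.128 for the small subunit, and 0.0363 and 0.160 for the large. With each library left out it ran from -0.281 to -0.0101, and from -0.290 to -0.00647 for the large subunit. The difference in the share of counts, left out in this way only after seeing the data, ran from -0.23 to 0.84 percentage points.

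Replicate numbers did not pair the samples (correlation of deviations -0.252 over 15246 genes). A replicate block gave 0 higher and 9 lower, the 8 and RPS19, with medians of -0.13. A crossed block, added after seeing the data, paired vector library 2 with JMJD3 library 1, and vector library 1 with JMJD3 library 2. That pairing follows the shift of the members themselves, so its calls are no separate support. It gave 6 higher and 34 lower, with 53.2% of all genes called (28.4% higher, 24.7% lower) against 40.7%.

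For 63 named genes, 1008 values under alternatives were set beside the main fit. Of these, 815 had the same direction and side of the threshold (or, with no test, moved by under 1 standard error). A further 80 lost the call, 28 gained it, 28 turned sign in a test, and 57 had no test and moved by more. Those with no test came from removing the length and level trend, where further signs turned. The log2 fold change was then 0.128 for RPSA, 0.0877 for RPLP0, 0.13 for RPLP2 and 0.0313 for RPS27A. It was 0.0470 for RPL10, 0.0448 for RPL7 and 0.11 for FAU. With total counts only the log2 fold change turned to 0.0144 for RPL22, 0.14 for RPS3, 0.0425 for RPS14, 0.0800 for RPL5, 0.0473 for RPL11, 0.0395 for RPL38 and 0.0499 for RPL7L1. RPS3 was 0.00799 with upper quartile scaling. With DESeq2 size factors or its Wald test RPS25 was -0.0145 and RPL41 -0.00660, and with limma on either FPKM scale -0.00550 and -0.0260. With each library left out the ranges were -0.0242 to 0.16 for RPL26, -0.21 to 0.12 for RPS3, -0.0723 to 0.12 for RPS24, -0.15 to 0.16 for RPS25, -0.0101 to 0.22 for RPL39, -0.12 to 0.14 for RPL41, -0.12 to 0.26 for RPL13 and -0.42 to 0.0268 for RPL21. With all libraries, TMM and no block edgeR called none of these genes. RPL22, RPL10, RPL7, RPLP0, RPLP2, RPS27A and RPSA were called in the crossed block. Without vector replicate 1 RPL21, RPL22, RPL38 and RPL5 passed as lower (adjusted p = 0.0131, 0.0369, 0.0488 and 0.0497 from edgeR), without vector replicate 2 RPL13 as higher (0.0390), and with total counts only RPL26 and RPL39 as higher. Each member had at least 2459 counts in every library.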
